A study of Mus musculus with 21 samples.

Results

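This report sets part 4 of the mouse presomitic mesoderm (PSM) against part 2, with part 3, which lies between them in number, shown as the intermediate. The arrays were chosen by their titles alone: 3 of part 4 and 3 of part 2, which is 6 of the 21 arrays of the series, and 3 more of part 3. In that series the PSM of CD-1 mouse embryos, an outbred strain, was divided into 7 pieces, and RNA from each piece was hybridised to 3 Affymetrix arrays. The groups differ only in the piece: all come from the same strain and stage, which one label gives as E8.5 while the protocol speaks of 9.0 days post-coitus. All were freed with pancreatin (2 mg/ml for 1 min) and needles from ectoderm, endoderm and lateral plate, and none carries a transgene or had an experimental treatment. The labels describe a walk from tailbud to somite but do not say which part number lies at which end, so positions are given by number. Left and right PSM were taken from one embryo and a further set from another, according to the design text, which ties neither to replicate numbers. The p-values therefore measure the spread between these arrays, some of which share an embryo.

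The PSM is the unsegmented strip of paraxial mesoderm on each side of the neural tube. At its tail end it receives new cells under Wnt and FGF signalling, and at its head end blocks of cells are cut off as somites, which are a source of retinoic acid. A Notch-dependent oscillator, the segmentation clock, runs through the tissue, and where FGF and Wnt activity drops, cells switch on the genes that place the next segment boundary.

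Between parts 2 and 4 of the PSM the genes that passed the test were a small share of all genes. Among 12143 genes tested with limma, 140 passed an adjusted p of 0.05 (1.15% of those tested), 76 of them higher in part 4 (0.626%) and 64 lower (0.527%). Of the 140, 100 differed by more than 2-fold (60 higher, 40 lower) and 29 by more than 4-fold (21 higher, 8 lower). In none of the 140, which were selected by this comparison, did the 3 arrays of part 4 overlap with the 3 of part 2. It follows that all 140 had one sign in the 3 differences between arrays of the same replicate number, which adds no further evidence. Over all genes tested, 676 (5.57%) lay entirely higher in part 4 and 984 (8.1%) entirely lower, and the median log2 difference was -0.03. Without adjustment, 1044 of the 12143 had a p under 0.05 (limma), which is the background for the unadjusted counts of the lists below. With the replicate number as a block in the fit, 311 genes passed (2.56%), 137 higher (1.13%) and 174 lower (1.43%), and the 140 were all among them. Of the genes listed for each group, 7 of 19 tested segment boundary genes, 4 of 18 somite genes and 4 of 16 retinoic acid genes were higher in part 4. Lower in part 4 were 6 of 21 tailbud genes, 4 of 17 secreted and membrane Wnt modulators and 3 of 16 FGF ligands and receptors, of which 1 more, Fgf18, was higher; the remaining members of these 6 lists did not pass. These lists share called members, so their counts are not independent. Aldh1a2 is in the somite and retinoic acid lists, Fgf18 in the boundary and FGF lists, and Fgf4 in the tailbud and FGF lists. The lists were chosen with earlier results of these data known. In tissue pieces of this kind fewer cells of a type and less RNA per cell cannot be told apart.

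Signals below are MAS5 values on a linear scale, in the order of replicates 1, 2 and 3. Differences are part 4 minus part 2 in log2(signal + 16) from limma, with the standard error of the fit over 3 arrays each, and folds are on that scale, which understates the change of weak genes. The median of all values in the table was a signal of 13.3, and values near or under it are weak. Array means lay between 151 and 154 and medians between 12.9 and 13.7. The label of the tissue was checked against genes of the PSM. The T-box gene Tbx6, needed for paraxial mesoderm fate, gave signals of 874, 1030 and 521 in part 2 and 495, 632 and 417 in part 4. Dll3, a Notch pathway gene of this tissue, gave 1460, 1830 and 1044 in part 2 and 1383, 1556 and 1291 in part 4. Both were far above the table median in every array of parts 2, 3 and 4. Of the other PSM genes in the fixed set, Hes7 and Dll1 were also far above it in each of these arrays. Msgn1, Fgf8 and Lfng were much lower, with values near or under the median in some arrays. Lfng gave 11.7, 28.1 and 53.0 in part 2 and 19.8, 21.8 and 72.2 in part 4.

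Segment boundary genes that passed were all higher in part 4. Of 21 genes listed for the boundary and the anterior PSM, 19 were tested, 7 were higher in part 4, 0 were lower and 12 did not pass; the replicate block left these counts as they were. Their median difference was 1.00, against -0.03 for all genes tested.

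Fgf18, an FGF ligand of the forming somites, gave signals of 1.24, 0.887 and 11.8 in part 2, 39.2, 15.1 and 60.4 in part 3, and 484, 218 and 456 in part 4. All part 2 values were weak and all part 4 values were far above them. The difference was 4.24 ± 0.40 (SE), or 18.9-fold (limma, adjusted p = 7.42e-06).

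Mesp2, the basic helix-loop-helix factor that sets the boundary, gave 4.60, 12.3 and 11.7 in part 2, 16.7, 9.38 and 49.9 in part 3, and 85.9, 190.5 and 1439 in part 4. Every part 4 array was above every part 2 array, but the part 4 arrays spread widely, with replicate 3 far above the others, and part 3 reached into the range of part 2. The difference was 3.63 ± 0.71 (SE; limma, adjusted p = 0.00995), and without part 2 replicate 1 it no longer passed (adjusted p = 0.0554).

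Its paralogue Mesp1, named here after its values were seen, gave 17.3, 12.4 and 15.8 in part 2 and 48.5, 86.3 and 484 in part 4, again with replicate 3 the highest. The difference was 2.26 ± 0.52 (SE; limma, adjusted p = 0.0368), and leaving out any of 4 single arrays of parts 2 and 4 ended the call (adjusted p up to 0.142). Ripply2, which represses Mesp2 and is switched on by it, gave 6.59, 2.44 and 7.34 in part 2 and 385, 22.6 and 287 in part 4. The part 4 arrays were all higher, but replicate 2 was far below the other two, and the difference of 2.97 ± 1.09 (SE) did not pass (limma, adjusted p = 0.343).

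Efnb2, an ephrin ligand at the boundary, gave 17.9, 15.5 and 92.9 in part 2, 106, 25.6 and 176 in part 3, and 419, 233 and 656 in part 4. The part 4 arrays were all higher than those of part 2, while part 3 overlapped with part 2. The difference was 3.10 ± 0.55 (SE; limma, adjusted p = 0.00499). A further probe set of Efnb2 differed by 2.04 ± 0.44 and a weak further one by -0.05 ± 0.25 (SE).

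Foxc2 and Foxc1, paired forkhead genes needed for somites to form, were both higher in part 4. Foxc2 gave 546, 374 and 330 in part 2, 891, 753 and 774 in part 3, and 1717, 1349 and 1353 in part 4. No array of one part overlapped with another part, and the difference was 1.81 ± 0.28 (SE; limma, adjusted p = 0.00128). For Foxc1 the difference was 1.38 ± 0.30 (SE; limma, adjusted p = 0.021), a call that 4 of the 6 single arrays of parts 2 and 4 ended when left out, with an adjusted p of up to 0.142. Another forkhead gene, Foxp1, was higher by 1.95 ± 0.25 (SE; limma, adjusted p = 0.000196), so that 3 of 14 forkhead genes tested were higher and 0 lower, or 5 and 1 under the replicate block, which added Foxd1 and Foxp2 as higher and Foxo3 as lower.

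Of 27 genes listed for somite and paraxial differentiation, 18 were tested, 4 were higher in part 4, 0 lower and 14 did not pass, with a median difference of 0.73. The 4 were Meox1, Aldh1a2, Tcf15 and Sim1, and the replicate block added Eya1 (1.69 ± 0.56, SE; limma with the block, adjusted p = 0.000179; without it 0.24).

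Meox1, a homeobox gene of somite cells, showed the widest difference of the 140 genes. Its signals were 43.5, 15.97 and 77.4 in part 2, 635, 162 and 385 in part 3, and 2192, 1375 and 1715 in part 4. The 3 parts did not overlap at all, and part 3 lay between the others. The difference was 4.96 ± 0.39 (SE), or 31.0-fold (limma, adjusted p = 9.58e-07).

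Tcf15, a helix-loop-helix factor needed for somites to become epithelial, gave 191, 209.7 and 134 in part 2, 510, 239.9 and 321 in part 3, and 1062, 722 and 672 in part 4. Here too the parts were in order without overlap, and the difference was 2.10 ± 0.28 (SE; limma, adjusted p = 0.000261). Sim1, a transcription factor of the somite, was higher by 0.96 ± 0.21 (SE; limma, adjusted p = 0.0286), a call that ended without any of 4 single arrays (adjusted p up to 0.162). The somite genes Uncx and Pax3, which mark the caudal compartment and the dermomyotome, did not pass, with differences of 1.00 ± 0.36 and 0.67 ± 0.35 (SE). Uncx remained weak, with no part 4 signal above 21.4.

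**Figure D1:**
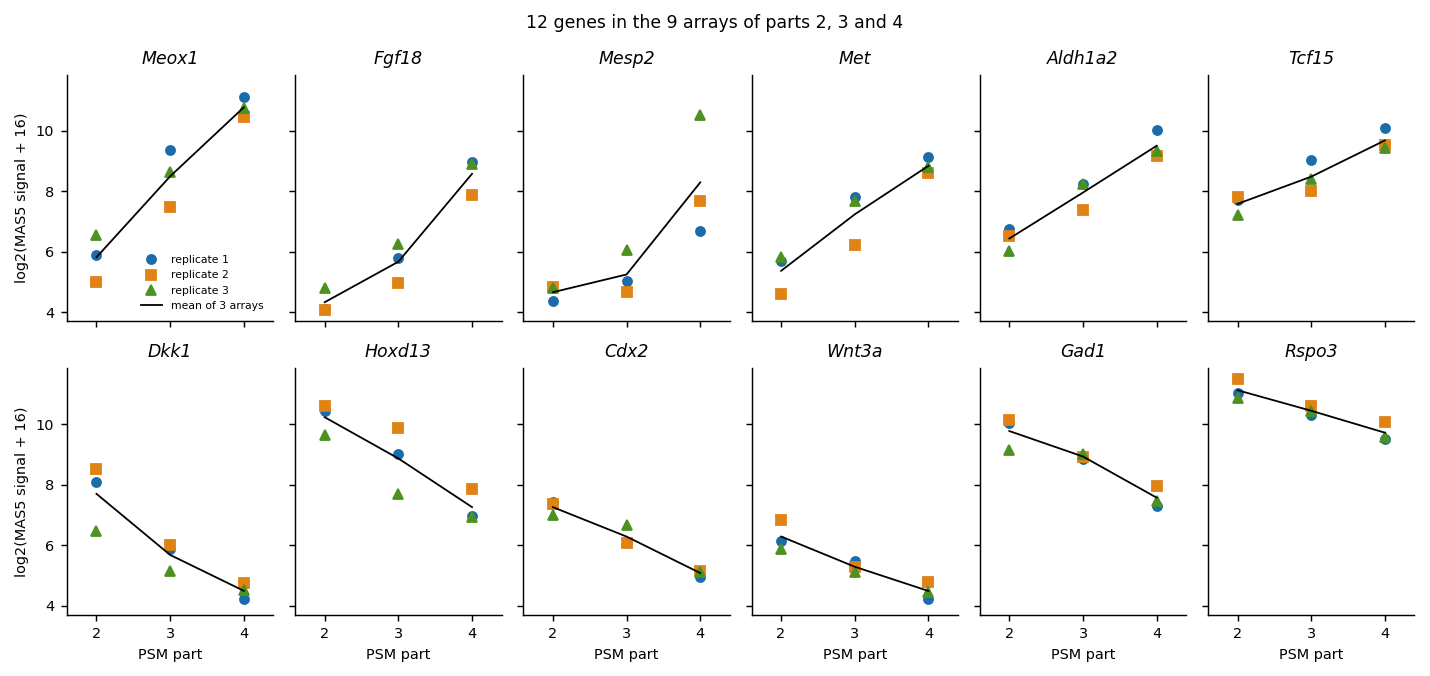
Log2(MAS5 signal + 16) of 12 genes (panels) in each array of PSM parts 2, 3 and 4 (horizontal axis), with a symbol for each replicate number and a line through the means of 3 arrays. The upper 6 genes were higher in part 4 and the lower 6 lower; in all 12 the arrays of parts 2 and 4 are apart, while Mesp2 stays near its part 2 level in part 3 and spreads widely in part 4.

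Of 24 genes listed for the retinoic acid pathway, 16 were tested, 4 were higher in part 4, 0 lower and 12 did not pass, also under the replicate block, with a median difference of 0.40. Aldh1a2, which makes retinoic acid in paraxial mesoderm, gave 92.3, 75.5 and 49.2 in part 2, 287, 152 and 284 in part 3, and 1016, 554 and 629 in part 4. Its 3 parts did not overlap, and the difference was 3.07 ± 0.30 (SE), or 8.37-fold (limma, adjusted p = 7.42e-06).

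The other 3 were transcription factors that respond to retinoic acid or work beside it. Nr2f1, an orphan nuclear receptor, gave 7.11, 0.253 and 30.2 in part 2 and 144, 125 and 212 in part 4, without overlap, a difference of 2.74 ± 0.45 (SE; limma, adjusted p = 0.00192). Its relative Nr2f2 differed by 1.89 ± 0.42 and the homeobox gene Meis1 by 1.34 ± 0.29 (SE; limma, adjusted p = 0.0259 and 0.0202). Leaving out 1 array ended the call of Nr2f2 in 5 cases and of Meis1 in 4, with adjusted p values of up to 0.18 and 0.152.

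Cyp26a1, which degrades retinoic acid, gave 45.3, 137 and 135 in part 2, 16.7, 19.0 and 16.4 in part 3, and 21.8, 17.3 and 25.6 in part 4. The arrays of part 2 were all higher than those of parts 3 and 4, which overlapped with each other. The difference between parts 4 and 2 was -1.59 ± 0.64 (SE) and did not pass (limma, adjusted p = 0.444).

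Of 23 genes listed for the tailbud and its progenitors, 21 were tested, 6 were lower in part 4, 0 higher and 15 did not pass, with a median difference of -0.68. Under the replicate block 8 were lower and 1, the activin antagonist gene Fst, was higher. The 6 were Hoxd13, Cdx2, Cdx4, Evx1, Wnt3a and Fgf4.

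Cdx2, a caudal homeobox gene that keeps the axis elongating, gave 157, 147 and 110.4 in part 2, 52.4, 51.6 and 86.3 in part 3, and 15.1, 19.7 and 18.7 in part 4. The parts were in falling order without overlap, and the difference was -2.18 ± 0.40 (SE; limma, adjusted p = 0.00631). Cdx4 gave 248.6, 362 and 272 in part 2 and 60.1, 56.7 and 51.9 in part 4, far apart, with a difference of -2.09 ± 0.41 (SE; limma, adjusted p = 0.0102). Without part 2 replicate 2 its adjusted p was 0.0725. The third gene of the family, Cdx1, differed by 0.59 and did not pass (limma, adjusted p = 0.75).

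Hoxd13, which stands at the 5′ end of the Hoxd cluster, gave 1376, 1544 and 780.4 in part 2, 504, 929 and 191 in part 3, and 109.5, 217.5 and 106 in part 4. Parts 2 and 4 did not overlap, and part 3 overlapped with each of them. The difference was -2.97 ± 0.56 (SE; limma, adjusted p = 0.00783), and leaving out part 2 replicate 2 or part 4 replicate 1 ended the call, with an adjusted p of up to 0.0563. Of 10 tested Hox genes of paralogues 9 to 13 it was the only one that passed, although all 10 had differences below 0 and their median was -0.71. With the replicate block 5 passed, the others being Hoxd11, Hoxc10, Hoxc9 and Hoxa9.

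The homeobox gene Evx1, named here after its values were seen, was lower, with a difference of -1.88 (limma, adjusted p = 0.018), but not without any of 4 single arrays (adjusted p up to 0.152). The transcript of its antisense partner Evx1os gave 174, 215 and 115 in part 2, 35.1, 67.9 and 27.1 in part 3, and 9.19, 18.7 and 27.9 in part 4. Part 4 was below part 2 in all arrays, and its highest value just reached the range of part 3. The difference was -2.41 ± 0.38 (SE; limma, adjusted p = 0.00135).

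The list for the posterior PSM, which shares Wnt3a, Fgf8 and Fgf17 with the tailbud list, held fewer calls. All 15 of its genes were tested, 2 were lower in part 4 (Wnt3a and Rspo3), 0 higher and 13 did not pass, with a median of -0.60. With the replicate block 6 were lower, among them Msgn1, Fgf17, Cited1 and Greb1, and 1 higher, the FGF and Wnt receptor inhibitor gene Shisa3. Msgn1, a mesogenin needed for PSM cells to mature, gave 46.8, 59.7 and 15.3 in part 2, 32.9, 37.3 and 22.8 in part 3, and 2.12, 9.87 and 8.76 in part 4. Part 4 was weak in all arrays and did not overlap with part 2. Its difference of -1.23 ± 0.33 (SE) did not pass without the block and passed with it (limma, adjusted p = 0.1 and 0.0175). It also passed when part 2 replicate 3, or replicate 3 of all parts, was left out (adjusted p = 0.0135 and 0.03). Tbx6, whose signals are given above, differed by -0.60 ± 0.25 (SE) and did not pass in either fit.

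Of 21 genes listed as secreted and membrane modulators of Wnt signalling, 17 were tested, 4 were lower in part 4 (Dkk1, Apcdd1, Rspo3 and Dkk3), 0 were higher and 13 did not pass, with a median difference of -0.24; the replicate block added Sfrp4 as higher. Dkk1, a secreted Wnt inhibitor, gave 258, 353 and 72.4 in part 2, 42.7, 48.5 and 19.4 in part 3, and 2.66, 10.8 and 6.69 in part 4. The 3 parts did not overlap, and replicate 3 was the lowest array in parts 2 and 3. The difference was -3.21 ± 0.48 (SE), or 9.23-fold lower (limma, adjusted p = 0.00101), and a further Dkk1 probe set gave -3.19 ± 0.39 (SE).

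Rspo3, a secreted enhancer of Wnt signalling, gave 2081, 2847 and 1827 in part 2, 1234, 1542 and 1366 in part 3, and 718, 1055 and 742 in part 4. The parts were again apart in every array, with a difference of -1.40 ± 0.25 (SE; limma, adjusted p = 0.00474). Apcdd1, a membrane-bound Wnt inhibitor, differed by -1.73 ± 0.29 and the dickkopf relative Dkk3 by -0.93 ± 0.21 (SE; limma, adjusted p = 0.00221 and 0.0258); the call of Dkk3 ended without any 1 of the 6 arrays of parts 2 and 4 (adjusted p up to 0.128).

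Of 27 Wnt ligand and receptor genes listed, 21 were tested, 1 was lower and 1 higher, with a median of 0.02, also under the block. Wnt3a, a ligand that maintains caudal progenitors, gave 54.2, 98.8 and 42.9 in part 2, 28.2, 22.9 and 18.6 in part 3, and 2.56, 11.6 and 5.94 in part 4. The parts did not overlap, all part 4 values were weak, and the difference was -1.80 ± 0.25 (SE; limma, adjusted p = 0.000506). The receptor gene Fzd2 gave 384, 361 and 421 in part 2, 832, 625 and 752 in part 3, and 801, 895 and 889 in part 4. It was the one member that was higher, by 1.12 ± 0.19 (SE; limma, adjusted p = 0.0037), and its part 3 arrays overlapped with part 4. Among 16 tested intracellular Wnt targets only Cdx4 passed (median -0.47); with the replicate block 4 were lower, Msgn1, Sp5 and Nkd2 besides Cdx4, and Tcf7l2 was higher. Axin2, a common readout of Wnt signalling, differed by -0.18 and did not pass (limma, adjusted p = 0.97).

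The FGF ligands split. Of 18 FGF ligand and receptor genes listed, 16 were tested, 3 were lower (Fgf3, Fgf4 and Fgf15) and 1 higher (Fgf18), with a median of -0.17; with the replicate block Fgf17 joined the lower genes and Shisa3 the higher ones. Fgf4 gave 41.2, 39.4 and 22.7 in part 2, 11.5, 17.8 and 10.5 in part 3, and 0.658, 0.522 and 1.57 in part 4. The parts did not overlap and the part 4 values were close to 0, a difference of -1.55 ± 0.25 (SE; limma, adjusted p = 0.00196).

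Fgf15 gave 200.1, 236 and 146 in part 2, 123.3, 126 and 136 in part 3, and 49.8, 97.4 and 44.8 in part 4, also without overlap between any parts, a difference of -1.43 ± 0.24 (SE; limma, adjusted p = 0.00219). Fgf3 gave 367, 399 and 135 in part 2, 168, 221 and 92.1 in part 3, and 65.1, 94.2 and 40.7 in part 4. Replicate 3 was the lowest in each of these parts, the difference was -1.85 ± 0.41 (SE; limma, adjusted p = 0.0267), and leaving out any of 4 of the 6 single arrays of parts 2 and 4 ended the call, with an adjusted p of up to 0.175. Fgf8, the ligand best known for its gradient in this tissue, gave 11.4, 27.4 and 19.0 in part 2 and 0.981, 11.2 and 9.44 in part 4.

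The part 4 arrays of Fgf8 were all lower, but the levels were weak and the difference of -0.61 ± 0.28 (SE) did not pass. The receptor genes Fgfr1, Fgfr2 and Fgfr3 differed by -0.08, 0.18 and -0.54 and did not pass. Of 15 tested FGF targets 0 passed, 3 had an unadjusted p under 0.05 (limma), and the median was -0.46. With the replicate block 4 were lower: Dusp4, Efna1, Spry4 and Il17rd, feedback inhibitors of the pathway apart from the ephrin Efna1. Dusp4, a phosphatase that acts on MAP kinases, differed by -1.83 (limma with the block, adjusted p = 4.1e-05; without it 0.26).

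Dkk1 and Fgf3, a Wnt modulator and an FGF ligand, were both lower in part 4. They were the 2 of 46 lower genes with a promoter sequence whose 250 bases before the start held the TCF/LEF motif searched here (CTTTGAA on either strand). It is a form of the sequence that nuclear effectors of Wnt signalling bind, and other forms were not searched. Their RefSeq promoters (GRCm38.p6) are printed 5′ to 3′ on the gene's own strand, with the motif in capitals; Dkk1 lies at chr19:30549497-30549746 on the minus strand and Fgf3 at chr7:144838362-144838611 on the plus strand. In Dkk1 the match starts 117 bases before the start of transcription and in Fgf3, on the opposite strand, 198 bases before it.
Dkk1: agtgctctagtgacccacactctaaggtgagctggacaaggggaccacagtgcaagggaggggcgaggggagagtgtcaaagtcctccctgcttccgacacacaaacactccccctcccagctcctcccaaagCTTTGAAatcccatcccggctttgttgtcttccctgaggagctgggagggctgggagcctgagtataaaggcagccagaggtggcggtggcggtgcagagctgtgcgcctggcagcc
Fgf3: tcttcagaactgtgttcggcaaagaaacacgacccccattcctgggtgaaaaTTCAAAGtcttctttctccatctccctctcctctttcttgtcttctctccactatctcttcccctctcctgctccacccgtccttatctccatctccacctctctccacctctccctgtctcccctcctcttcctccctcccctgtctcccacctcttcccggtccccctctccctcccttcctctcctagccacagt

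A match is a stretch of letters and no evidence of binding. The TCF/LEF motif in the form CTTTGAA stood in 4.35% of lower genes' promoters, in 5.56% of 54 higher genes' promoters and in 3.23% of 9841 promoters of tested genes. The RBPJ motif of the Notch pathway (GTGGGAA) stood in 2.17%, 3.70% and 5.49%, the T-box motif (AGGTGTG) in 2.17%, 5.56% and 3.81%, and the nuclear receptor motif (AGGTCA) in 8.70%, 9.26% and 10.2%, in the same order. For the ETS motif (CCGGAAG) the shares were 4.35%, 7.41% and 13.9%, for the forkhead motif (TGTTTAC) 2.17%, 1.85% and 2.13%, and for the caudal motif (TTTATGG) 2.17%, 0% and 1.51%. E-boxes (CANNTG) and N-boxes (CACNAG), which can overlap with each other, stood in 60.9%, 57.4% and 56.4% and in 30.4%, 31.5% and 34.9%. Both strands were searched. Median GC content was 62.2% in lower, 63.4% in higher and 60.0% in all promoters.

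Of 10 Notch ligand and receptor genes tested 0 passed (limma; 4 had an unadjusted p under 0.05, and 0 passed with the replicate block), and of 12 modifiers and transducers 0 passed (2 unadjusted, 0 with the block). The ligand gene Dll1 gave 425, 890.3 and 921 in part 2, 709.7, 488 and 1391 in part 3, and 1333, 1110 and 2276 in part 4. All part 4 arrays were higher than those of part 2, while part 3 overlapped with both, and the difference was 1.07 ± 0.45 (SE; limma, adjusted p = 0.472).

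Of 16 tested targets of Notch and the clock 1 was higher and 0 lower; the block added Efna1 as lower. The higher one was Hey1, a hairy-related repressor, with 95.7, 104 and 198 in part 2, 272, 209 and 408 in part 3, and 359, 439.6 and 849 in part 4. Replicate 3 was the highest in each part, and the difference was 1.90 ± 0.37 (SE; limma, adjusted p = 0.00868). Leaving out any of 3 single arrays ended the call, with an adjusted p of up to 0.0685. The clock repressor Hes7, the glycosyltransferase Lfng, which modifies Notch, and Dll3 differed by -0.18 ± 0.44, 0.17 ± 0.44 and -0.003 ± 0.27 (SE), and their arrays overlapped between the parts. Hes5, a Notch target, gave 9.10, 16.5 and 12.5 in part 2, 63.2, 101.2 and 49.4 in part 3, and 17.1, 79.7 and 217 in part 4; it was higher in all part 4 arrays but did not pass (1.66 ± 0.94, SE; limma, adjusted p = 0.711).

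**Figure D2:**
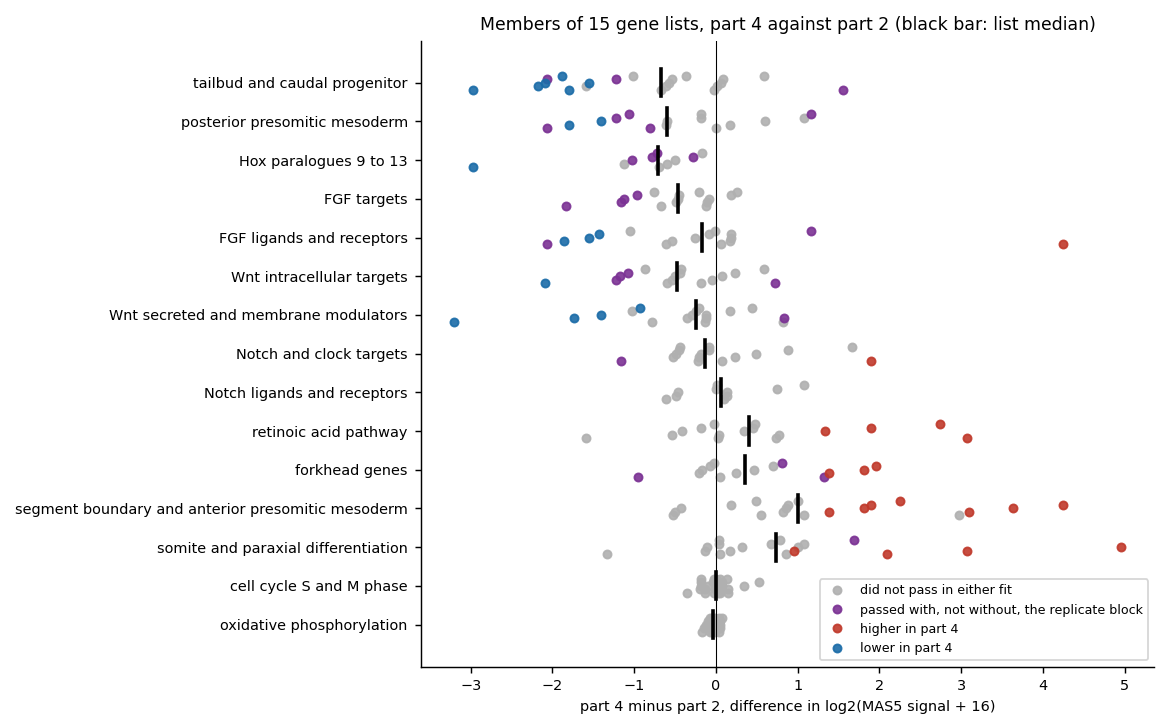
Differences between parts 4 and 2 in log2(MAS5 signal + 16) for the tested members (points) of 15 gene lists, and black bars at the list medians. Colours mark genes that were higher or lower in part 4, that passed with the replicate block but not without it, or that did not pass; the segment boundary list has 7 higher members and a median of 1.00, and the lists of cell cycle and oxidative phosphorylation genes lie close to 0.

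Among guidance cues and chemokines 3 of 26 tested genes were higher and 0 lower, with a median of -0.04; the replicate block added Cxcr4, Nrp2 and Sema6d as lower. Met, the receptor of hepatocyte growth factor, gave 35.3, 8.02 and 41.1 in part 2, 207, 58.2 and 190.2 in part 3, and 538, 374 and 426 in part 4. The parts did not overlap, replicate 2 was the lowest in each, and the difference was 3.47 ± 0.37 (SE), or 11.1-fold (limma, adjusted p = 1.93e-05). The chemokine gene Cxcl12 gave 110.5, 59.5 and 91.4 in part 2, 276, 233 and 229 in part 3, and 667, 473 and 621 in part 4, a difference of 2.57 ± 0.26 (SE; limma, adjusted p = 1.09e-05).

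The netrin gene Ntn1 gave 20.0, 19.4 and 29.8 in part 2, 146, 41.9 and 145 in part 3, and 233, 143 and 298 in part 4. Part 4 was far above part 2, with 1 array of part 4 inside the range of part 3, and the difference was 2.58 ± 0.36 (SE; limma, adjusted p = 0.000473). Cxcr4, the receptor of the Cxcl12 chemokine, had a difference below 0 that passed with the block (-1.32; limma with the block, adjusted p = 0.00014; without it 0.2). Of 17 tested Eph receptors and ephrins 1 was higher, Efnb2, and 1 lower, Epha1 (-1.82 ± 0.30, SE; limma, adjusted p = 0.00192); the block added Efna1 as lower.

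The promoter of Met, the guidance gene with the widest difference, holds the RBPJ motif 28 bases before the start. It is printed from RefSeq (GRCm38.p6, chr6:17463707-17463956, plus strand) with that motif in capitals, beside that of Mesp2 (chr7:79810477-79810726, plus strand), which holds none of the 7 motifs that were marked in this way.
Met: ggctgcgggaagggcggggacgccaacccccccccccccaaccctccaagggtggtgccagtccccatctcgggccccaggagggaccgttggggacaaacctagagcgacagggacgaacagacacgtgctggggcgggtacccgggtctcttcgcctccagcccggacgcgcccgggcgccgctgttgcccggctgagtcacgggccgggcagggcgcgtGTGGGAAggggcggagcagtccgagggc
Mesp2: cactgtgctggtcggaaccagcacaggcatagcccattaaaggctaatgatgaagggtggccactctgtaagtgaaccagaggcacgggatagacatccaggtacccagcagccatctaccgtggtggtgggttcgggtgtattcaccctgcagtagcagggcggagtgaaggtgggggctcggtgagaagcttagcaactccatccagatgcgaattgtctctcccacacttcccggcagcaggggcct

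The promoters of Fgf18 and Aldh1a2 hold none of them either, in this window of 250 bases, which says nothing on the factors concerned. That of Cdx2 holds the forkhead motif.

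BMP pathway genes gave 1 higher and 1 lower of 19 tested, with a median of -0.11, and the block added Fst as higher. Bmp2, a BMP ligand, gave 61.8, 15.8 and 94.1 in part 2, 159, 92.7 and 118 in part 3, and 191, 328 and 290.5 in part 4. Parts 2 and 4 did not overlap, and part 3 overlapped with part 2. The difference was 2.11 ± 0.45 (SE; limma, adjusted p = 0.0202), and 4 of 6 single arrays of parts 2 and 4 ended the call when left out. Bmper, a secreted protein that binds BMPs, gave 48.7, 57.7 and 59.5 in part 2, 12.7, 19.2 and 11.7 in part 3, and 4.57, 3.18 and 6.14 in part 4, without overlap, a difference of -1.79 ± 0.28 (SE; limma, adjusted p = 0.00142).

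Of 15 tested TALE and Zic genes 2 were higher, Meis1 and Zic5, and the block added Irx3. The zinc finger gene Zic5 gave 2.19, 15.9 and 8.84 in part 2, 11.2, 2.28 and 14.8 in part 3, and 156, 24.8 and 110 in part 4. It was weak in all arrays of parts 2 and 3, which overlapped, and its difference of 1.98 ± 0.46 (SE; limma, adjusted p = 0.0395) lost its call without any of 6 arrays, with an adjusted p of up to 0.312. Of 11 tested hedgehog pathway genes 0 passed (1 unadjusted; Gas1 was higher with the block), and of 10 Hox genes of paralogues 1 to 4 and 8 of paralogues 5 to 8, 0 passed (1 and 5 unadjusted; 0 and 1 lower with the block).

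Further genes among the 10 widest differences each way belong to none of these pathways. Gadd45g, a growth arrest gene, was higher by 3.01 ± 0.55, Msc, a helix-loop-helix repressor, by 2.94 ± 0.45, and Pappa, a protease that frees insulin-like growth factors, by 2.75 ± 0.29 (SE; limma, adjusted p = 0.0055, 0.00128 and 1.74e-05). Gad1, which makes the transmitter GABA, gave 1041, 1107 and 547 in part 2, 439.9, 471 and 505 in part 3, and 141, 234 and 158 in part 4. The 3 parts of Gad1 did not overlap, and the difference was -2.20 ± 0.38 (SE; limma, adjusted p = 0.00332).

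The homeobox gene Otx1 gave 64.5, 96.8 and 32.9 in part 2, 9.79, 21.7 and 26.6 in part 3, and 0.748, 0.704 and 0.805 in part 4. All part 4 values of Otx1 were close to 0, and the difference was -2.19 ± 0.28 (SE; limma, adjusted p = 0.000158). Cldn9, a tight junction claudin, and Chst7, a sulfotransferase, were lower with differences of -2.09 ± 0.26 and -1.91 ± 0.36 (SE; limma, adjusted p = 0.000121 and 0.00783). The call of Chst7 ended without any of 3 single arrays (adjusted p up to 0.0657).

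General cell functions showed few or no calls. Of all genes tested 1.15% were called, so in lists of this size 0 or 1 calls do not set the genes apart. Of 29 tested S and M phase genes, 25 oxidative phosphorylation genes and 26 ribosome biogenesis genes 0 passed in limma with or without the block (1, 0 and 1 unadjusted), and their medians were 0.003, -0.03 and 0.04. Of 22 genes of glycolysis and hypoxia 1 was lower, the oxygen-sensing hydroxylase gene Egln3 (-1.45 ± 0.26, SE; limma, adjusted p = 0.0053), and the block added Aldoc as higher. Of 28 matrix, laminin and integrin genes 1 was lower, the collagen gene Col1a2 (-1.68 ± 0.26, SE; limma, adjusted p = 0.00128), and the block added Fbn2 as higher. Of 14 cadherins and protocadherins 0 passed (5 unadjusted; Cdh11 and Fat1 were lower with the block), and of 15 stress and immediate early genes only Gadd45g did.

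Part 3 lay between parts 2 and 4 for nearly all of these genes. Its mean was between theirs in 138 of the 140 genes, against 40.06% of all genes tested, most of which differ little between parts 2 and 4. The exceptions were Stum, whose part 3 arrays stayed at 0.921, 2.44 and 1.22 against 1.21, 1.13 and 2.95 in part 2, and the secretin gene Sct, which was lower in part 3 than in part 4 on average; their calls between parts 4 and 2 ended without any of 3 and of 5 single arrays. As a share of the way from the part 2 to the part 4 mean, the median position of part 3 was 0.46, with quartiles of 0.33 and 0.57; it was 0.44 for higher and 0.47 for lower genes.

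In some genes the part 3 mean stood nearer to part 2 or to part 4, though no gene's departure from the midpoint passed the test given below. Part 3 had covered less than 0.25 of the way in 15 genes, among them Zic5 (0.01), Ccng2, which encodes cyclin G2 (0.14), Mesp2 (0.16), Sox9 (0.18) and Gadd45g (0.22). It had covered more than 0.75 in 5 genes: Wt1, Atp1b1, Tcaf2, Fzd2 (0.79) and Sct; apart from that of Fzd2, the calls of these 5 between parts 4 and 2 each ended without any of at least 5 single arrays. Tested against the midpoint of parts 2 and 4, the part 3 mean departed from it in 0 of 12143 genes with limma, and 248 genes (2.04%) had an unadjusted p under 0.05, 7 of the 140 among them. The replicate block also gave 0. With this number of arrays no gene showed a difference in size between the lower and the upper step.

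The single steps had few calls. Between parts 3 and 2 limma called 1 gene (0.00824%), Meox1, higher by 2.68 (adjusted p = 0.0156). An unadjusted p under 0.05 was found for 405 of 12143 genes, and 18 passed with the replicate block. Between parts 4 and 3 it called 6 genes (0.0494%), 5 higher (0.0412%) and 1 lower (0.00824%). Here 647 of 12143 had an unadjusted p under 0.05, and 34 passed with the block. With no differences at all, a share of about 0.05 would fall under that threshold, so the unadjusted counts show no further step differences. The 6 genes called between parts 4 and 3 are described next. The higher ones included Meox1, Fgf18, the cytoskeletal adducin gene Add3 and Ccng2, and the lower one was Cd40, a receptor of the tumour necrosis factor family. Cd40 gave 114, 148 and 139 in part 2, 83.6, 106 and 70.1 in part 3, and 28.8, 31.3 and 32.2 in part 4, with no overlap between the parts. The 3 comparisons share arrays, so their calls are not independent of each other. The call between parts 3 and 2 was lost without part 2 replicate 1 or 2, or without part 3 replicate 1 or 3. All 6 calls between parts 4 and 3 were lost without part 3 replicate 2, part 4 replicate 1 or part 4 replicate 3. Both steps had 0 calls with only parts 2 to 4 fitted.

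**Figure D3:**
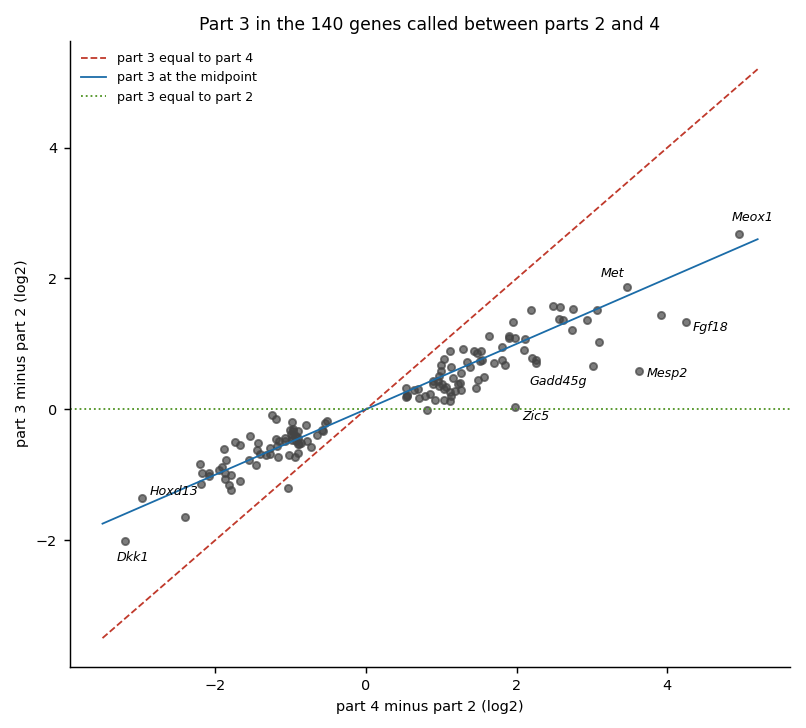
Part 3 minus part 2 (vertical) against part 4 minus part 2 (horizontal), both in log2(MAS5 signal + 16), for the 140 genes called between parts 2 and 4 (points); both axes use the part 2 arrays. Lines mark where part 3 would equal part 2, the midpoint or part 4; 138 points lie between the outer lines, with Zic5 and Mesp2 near the line of part 2.

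The pieces outside this span were read for the same genes; their arrays do not enter the means of parts 2 and 4, but they share in the filter and in the fit's estimate of spread. With only parts 2 to 4 fitted, 121 genes were called, 106 of the 140 among them. Of the 76 genes higher in part 4 than in part 2, 74 had a higher mean in part 7 than in part 1, and of the 64 lower genes 63 had a lower one, while 50.12% of all genes tested had a higher mean in part 7. The exceptions were Bmp2, Nav1 and Tmem18, whose call ended without any 1 of the 6 arrays of parts 2 and 4 (adjusted p up to 0.167). In some genes the ends were close. The means of parts 1 and 7 were within 0.5 of each other in 9 of the higher genes, Bmp2 and Tmem18 among them, and in 3 of the lower genes.

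Bmp2 had its highest mean of the 7 parts in part 4. Its mean log2 values from part 1 to part 7 were 5.50, 6.02, 7.09, 8.13, 6.45, 5.98 and 5.30. The means past part 4 were lower again, and part 7 was below part 1. Ddit4, a stress-responsive inhibitor of growth signalling named here after its values were seen, had means of 8.52, 9.09, 10.20 and 10.72 in parts 1 to 4 and of 9.47, 8.76 and 8.56 in parts 5 to 7. Nav1, a neuron navigator gene, was lower in part 4 than in part 2, but 0.77 higher in part 7 than in part 1. The calls of Ddit4 and Nav1 between parts 4 and 2 each ended without any of 7 single arrays (adjusted p up to 0.155 and 0.164). These are descriptions of part means, and the shape of the profiles was not tested.

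**Figure D4:**
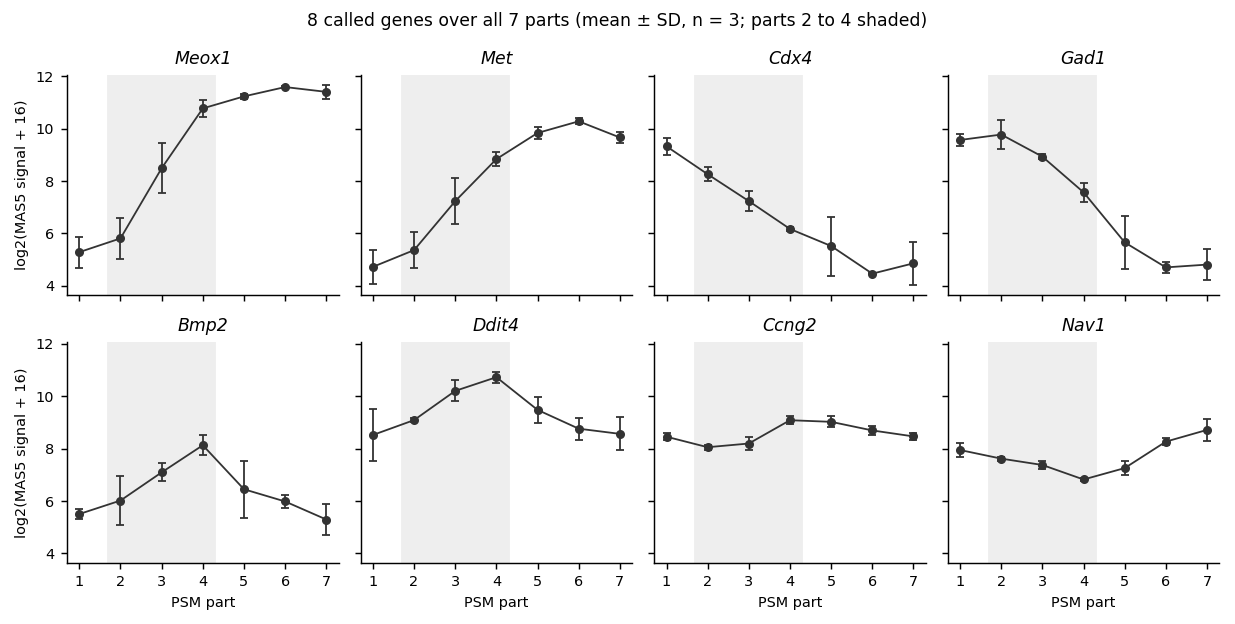
Mean log2(MAS5 signal + 16) with the SD over 3 arrays of 8 called genes (panels) in each of the 7 PSM parts, with parts 2 to 4 shaded. Meox1 and Met stay high after part 4, and Cdx4 and Gad1 have still lower means there than in part 4. Bmp2 and Ddit4 have their highest mean in part 4 and Nav1 its lowest. Ccng2 is nearly as high in part 1 as in part 7.

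Markers of other tissues were read in the same arrays. The 10 tested blood genes all had differences below 0, with a median of -0.52, but 0 passed (limma, 1 unadjusted; 0 with the block), and their summed signal ranged from 11130 to 15580 in part 2, from 12740 to 16710 in part 3 and from 8388 to 12700 in part 4. Embryonic globin Hbb-bh1 gave 4422, 4981 and 6584 in part 2 and 2379, 3649 and 5258 in part 4, overlapping. Of 17 endothelial genes 0 passed (1 unadjusted; 0 with the block), and their summed signal was 138 to 2214 in part 2, 1311 to 1862 in part 3 and 396 to 1453 in part 4. The lowest of these was part 2 replicate 2, in which the vascular receptor gene Kdr gave 12.5 against 152 and 313 in the other part 2 arrays.

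Gut endoderm markers stood out in replicate 3. The summed signal of 13 tested genes was 131 to 3121 in part 2, 227 to 2524 in part 3 and 132 to 444 in part 4, with replicate 3 the highest in each part and 0 genes past the threshold (limma, 0 unadjusted; 0 with the block). Afp, alpha-fetoprotein, gave 2156, 1548 and 57.9 in replicate 3 of parts 2, 3 and 4 and at most 7.51 in the other 6 arrays. Of 10 tested neural tube markers 0 passed (limma, 1 unadjusted), and with the block 1 was higher, Irx3 (1.14), and 1 lower, Fabp7 (-1.02); their summed signal was 1773 to 2290 in part 2, 1656 to 1766 in part 3 and 1689 to 1763 in part 4. Surface ectoderm markers had no call (6 tested, 0 passed, 0 unadjusted, 0 with the block; 63.8 to 109 summed).

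Of 13 markers of lateral and intermediate mesoderm 8 were tested, 1 was higher in part 4, Wt1, and 0 lower (limma, 4 unadjusted), and the block added Osr1 as higher. Their median difference was 0.59, or 0.945 without part 2 replicate 3, and 6 of the 8 lay above 0. The summed signal was 86.8 to 520 in part 2, 297 to 445 in part 3 and 236 to 617 in part 4, so that the parts overlapped. Of 10 neural crest markers 8 were tested, 1 was higher, Sox9, and 0 lower, also with the block, with a median of 0.20. Their summed signal was 312 to 665 in part 2, 383 to 590 in part 3 and 390 to 688 in part 4.

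Sox9, a neural crest and cartilage factor, was higher by 1.13 ± 0.22 and Wt1, a gene of intermediate mesoderm, by 1.03 ± 0.25 (SE; limma, adjusted p = 0.00829 and 0.0473). The call of Wt1 ended without any one of the 9 arrays of parts 2 to 4, and that of Sox9 without part 2 replicate 2.

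Without replicate 3, 124 genes were called, 82 of the 140 among them. Cdx4 lost its call (limma, adjusted p = 0.12). Gadd45g, Apcdd1, Bmp2, Foxc1 and Sox9 lost theirs too (limma, adjusted p = 0.0872, 0.0665, 0.0673, 0.118 and 0.0795), among others. By list, 6 tailbud genes were then lower, but with Cdx4 gone they were not the same 6. Higher were 5 segment boundary genes, 4 somite genes and 4 retinoic acid genes. Of the posterior PSM genes 5 were lower and 1 higher. Secreted and membrane Wnt modulators then had 2 lower genes in place of 4. The part of blood, vessel, gut, neural, crest or lateral mesoderm RNA in any difference was not tested. The ratio of 3′ to 5′ probe sets of beta-actin, a measure of how far transcripts were shortened, lay between 2.98 and 4.31 (log2) in part 2, 3.41 and 4.22 in part 3, and 3.07 and 4.02 in part 4, and so overlapped. Within each of these parts replicate 3 had the lowest ratio, at 2.98, 3.41 and 3.07. The same held for Gapdh, at 2.82, 3.25 and 2.77. The ratio thus went with the replicate number, and its part in any difference was not tested.

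**Figure D5:**
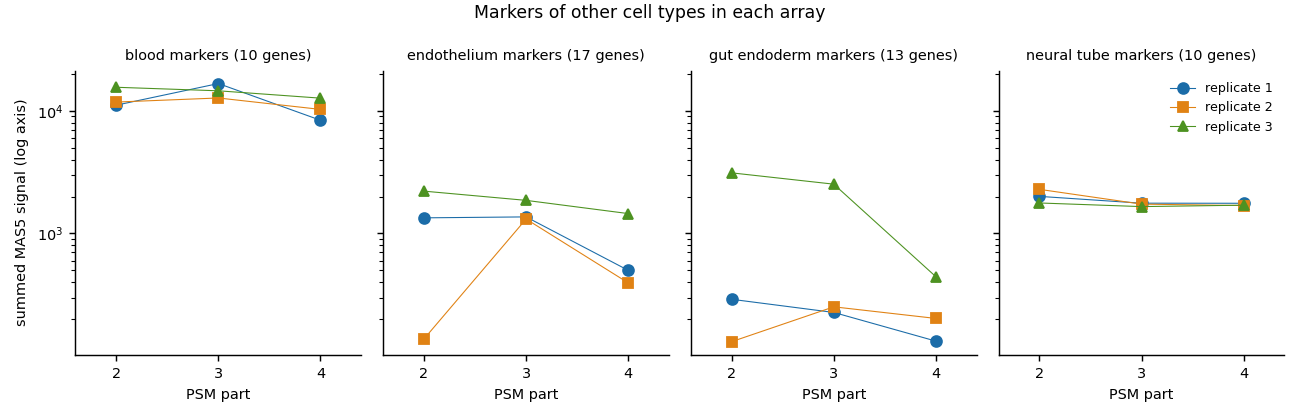
Summed MAS5 signal (log axis) of the tested markers of 4 other tissues (panels) in each array of PSM parts 2, 3 and 4, with a symbol for each replicate number. Endothelial signal is lowest in part 2 replicate 2, at 138, and gut endoderm signal is highest in replicate 3 in each part, up to 3121.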

How the data were processed

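RNA extracted with Trizol was amplified in 2 cycles and labelled with biotin, per the labels' protocols. The deposited values are signal intensity per probe set on a linear scale, which the authors made with MAS5, going by the submitters' processing notes, with neither its version nor its scaling target given in the sources used here. Scaling makes array means alike, which hides any shift common to most genes, and amplification shortens transcripts towards the 3′ end. Detection calls were not used here. The number of arrays limits the precision.

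Of 45101 probe sets, the platform annotation gave 34945 a single gene symbol, 932 several and 9160 none, and 64 were controls; 34884 of the single symbols were found in the RefSeq gene table (GRCm38.p6). Each of 18193 genes was read from its probe set of highest mean. Values were taken as log2(signal + 16), and genes at or above 13.3, the median of all values, in at least 3 arrays were tested (12143 genes). Limma 3.58.1 in R 4.3.3 fitted 1 mean per part over all 21 arrays with a mean-variance trend (14 residual degrees of freedom), and p-values were adjusted by Benjamini-Hochberg over all genes tested, with a threshold of 0.05. Contrasts were part 4 against part 2, part 3 against part 2, part 4 against part 3, and part 3 against the midpoint of parts 2 and 4. The fit was checked on simulated data with independent noise in each array. That check did not cover arrays that vary together, as the same-numbered ones do here.

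Same-numbered arrays of parts 2, 3 and 4 deviated from their part means together in all 9 pairs, with correlations of 0.23 to 0.68, so the fit with the replicate number as a block is given beside counts it moves. The numbers come from the array titles, which do not say what they stand for. Replicates 1 and 2 also correlated with each other across numbers (0.226 to 0.396), and replicate 3 correlated negatively with both (-0.36 to -0.51). The deviations of 3 arrays from their own mean cancel out. Positive values for replicate 3 with itself therefore bring negative ones with the others, so these signs are partly set by the centring.

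The members, the 38 gene lists, the tests and the alternatives were chosen with earlier results of these data known. Genes are named if they are among the 10 widest called differences each way with one sign in all 3 same-numbered differences, among the 3 widest called members of a list, among 3 called genes each way in a single step or the midpoint contrast, in a fixed set of PSM genes, or behind a count of 5 or fewer. Not every gene that the rule allows is named, and 1 of those genes is not reported here. Each choice was also changed by itself: the pseudocount (1, 64), the filter (none, 75th percentile), the scaling (quantile, median centring), the variance trend, array weights, the handling of probe sets (mean per gene, each alone), the arrays fitted (only parts 2 to 4), the replicate block (fixed, random), and the arrays left out (a replicate number, or 1 array of parts 2 to 4).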

Additional observations from a re-analysis of the deposited data

How the results depend on the processing

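The 140 genes called between parts 4 and 2 kept their sign in each alternative in which they were tested. In most alternatives this could not have come out otherwise. The arrays of parts 2 and 4 did not overlap in any of the 140. Leaving out arrays, weighting them, changing the pseudocount or adding the block therefore could not reverse a sign. The number of genes called was 311 with the replicate block, 266 with a random replicate block and 291 with array weights, each holding all 140. It ranged from 24 without replicate 1 to 179 without part 2 replicate 3 when arrays were left out, with 57 without replicate 2, 88 and 80 without part 2 replicates 1 and 2, and 72 without part 4 replicate 1. Of the 140, 61 stayed called without each single array of parts 2 to 4 and 79 lost their call without at least 1; for genes named in the report, this stands beside their values. The call of part 3 against part 2 (1 gene) became 4 with quantile normalization, 12 with array weights, 2 with every probe set alone, 0 with only parts 2 to 4, 18 with the block, 13 with a random block, and 0 to 7 when arrays were left out. The 6 calls of part 4 against part 3 became 10 with a pseudocount of 64, 50 with array weights, 0 with only parts 2 to 4, 34 with the block, 28 with a random block, and 0 to 9 when arrays were left out. The midpoint contrast gave 0 calls in all alternatives run (99 to 960 genes at an unadjusted p under 0.05). The causes of these changes were not tested, beyond the smaller number of arrays in fits that leave some out. With 3 arrays a part, small differences could not be shown, and weak signals near the median of 13.3 are noisy and understated on this scale. The median difference of all genes was -0.03, 0.00 with quantile normalization and 0.04 with median centring, and 76 of 140, 77 of 131 and 87 of 136 called genes were higher in part 4.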

Other observations

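Beyond the lists, 171 genes passed with the replicate block and not without it, 61 higher in part 4 and 110 lower; the genes named here were picked after their values were seen. Among the higher ones were Selenop, a selenium transport protein (1.63), Zfhx4, a zinc finger homeobox gene (1.37), the growth factor gene Ptn (1.25), Gas1, a co-receptor for hedgehog (1.01), and Fbn2, a fibrillin of the extracellular matrix (0.81). Among the lower ones were the T-box gene Tbx3 (-1.75), the Hox gene Hoxa7 (-1.40), the RNA-binding protein gene Zfp36l2 (-1.45) and Fabp7, a fatty acid binding protein (-1.02); these are log2 differences of part 4 minus part 2.

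Other probe sets of the called genes gave the same direction in most cases. For 77 of the 140 genes there were 148 further probe sets, of which 145 had the sign of the chosen one and 48 passed by themselves at an adjusted p of 0.05 (limma). Probe sets of 1 gene share the same RNA samples and are not independent.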
